A study of Mus musculus with 6 samples.

Results

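Splicing factors and heterogeneous nuclear ribonucleoproteins (hnRNPs) were followed in horizontal basal cells, the reserve stem cells of the mouse olfactory epithelium, 18 h after injury. The members were all table entries for a single gene whose symbol begins with Srsf, Sfrs, Sf3, Snrp, Hnrn, Lsm, Prpf or U2af. This rule, which used no measured value, gave 62 of the 8078 genes listed. They comprised 12 SR and SR-related genes, 8 subunits of SF3a and SF3b, 9 Sm and other snRNP genes, 12 hnRNPs, 9 LSm genes, 11 PRP factors and U2af1.

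The injured group was 3 libraries from mice that breathed methyl bromide gas at 180 ppm for 8 h and were taken 18 h later, and the uninjured group was 3 libraries from mice given no gas. Both groups were 12 weeks old and carried the same alleles on the B6 background, KRT5-CreER and Ai9 fl(Stop)TdTomato, and both had received tamoxifen 2 weeks before cell sorting. TdTomato therefore marked cells in which the Krt5 promoter had driven Cre at the time of tamoxifen, together with their descendants, and each library pooled cells sorted from several animals. Levels are in FPKM, a read density per length of transcript and per size of library, which allows genes of different length to be set side by side.

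The spliceosome removes introns from pre-mRNA. Small nuclear ribonucleoproteins (snRNPs), each an RNA held in a ring of Sm or LSm proteins, recognise the splice sites and the branch point and are rearranged by PRP factors before the cut. SR proteins bind exons and usually favour their use, whereas many hnRNPs oppose it or act in a position-dependent way. SR and hnRNP genes are also known for regulating their own mRNAs through unproductive splicing that leads to nonsense-mediated decay.

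The promoters of the 3 SF3a genes and of Hnrnph3 are shown because each SF3a gene was higher in every injured library than in any uninjured one and Hnrnph3 was the one member that was lower in all of them; they were chosen after their values were seen. Each is the 250 bases before the annotated start, 5′ to 3′ on the gene's strand, from RefSeq on GRCm38.p6. Capitals mark the letters CCGGAAG (an ETS-type motif, read on both strands, so that the reverse complement is also in capitals) and an NRF1-type motif (GCGCA, any base, then GCGC). The regions are chr11:4160104-4160353 on the plus strand for Sf3a1, chr10:80798485-80798734 on the plus strand for Sf3a2, chr4:124714611-124714860 on the plus strand for Sf3a3, and chr10:63023850-63024099 on the minus strand for Hnrnph3.
Sf3a1: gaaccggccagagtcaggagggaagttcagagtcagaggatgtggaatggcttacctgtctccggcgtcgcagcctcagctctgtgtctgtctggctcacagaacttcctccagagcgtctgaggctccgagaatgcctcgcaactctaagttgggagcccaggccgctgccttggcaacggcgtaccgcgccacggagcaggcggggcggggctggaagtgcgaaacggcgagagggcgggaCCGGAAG
Sf3a2: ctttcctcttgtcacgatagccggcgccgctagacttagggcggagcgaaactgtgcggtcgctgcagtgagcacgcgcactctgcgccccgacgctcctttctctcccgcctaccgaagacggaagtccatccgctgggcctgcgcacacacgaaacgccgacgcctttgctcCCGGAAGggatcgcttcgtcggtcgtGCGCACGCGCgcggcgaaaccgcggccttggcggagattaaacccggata
Sf3a3: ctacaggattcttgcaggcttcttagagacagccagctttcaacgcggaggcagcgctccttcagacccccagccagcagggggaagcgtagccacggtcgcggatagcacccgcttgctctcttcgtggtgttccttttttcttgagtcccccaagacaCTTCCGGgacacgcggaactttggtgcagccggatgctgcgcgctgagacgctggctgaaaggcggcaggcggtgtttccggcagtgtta
Hnrnph3: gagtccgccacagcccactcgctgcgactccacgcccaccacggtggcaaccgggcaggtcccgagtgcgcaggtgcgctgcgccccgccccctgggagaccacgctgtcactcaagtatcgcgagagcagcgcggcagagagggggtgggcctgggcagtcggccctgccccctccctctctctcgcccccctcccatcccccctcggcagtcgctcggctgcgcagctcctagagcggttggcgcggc

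The ETS letters began 7 bases before the start in Sf3a1, 76 bases before it in Sf3a2 and 90 bases before it in Sf3a3. Sf3a2 also held the NRF1 letters, 50 bases before its start, and neither set of letters was found in the Hnrnph3 window. Of the members, 52 had a promoter in the RefSeq table, and 14 of these (26.9%) held the ETS letters, against 14.0% of the 6239 tested genes with a promoter. The NRF1 letters were in 9 members (17.3%, against 8.99% of tested genes), the letters CCAAT in 26 (50.0%, against 36.7%), CACGTG in 2 (3.85%, against 8.54%) and TATAAA in 3 (5.77%, against 6.4%). The YY1-type letters, AAGATGG followed at once by CGGC, were in 0 members, against 0.449% of tested genes. All motifs were read on both strands, and a match describes letters only.

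The sort was checked against marker lists. Of 12 horizontal basal cell markers, 8 were in the table, and their summed level was 332, 211 and 430 FPKM in the injured libraries, against 358, 359 and 375 FPKM in the uninjured libraries. Trp63, the transcription factor that holds these cells dormant, was present in every library at 99.5 to 140 FPKM after injury and 157 to 194 FPKM without it. Injured replicate 2 stood apart: 11 measured markers of globose basal cells and neuronal precursors summed to 415 FPKM in it, against 45.0 and 34.5 FPKM in the other injured libraries and 43.5 to 69.9 FPKM in the uninjured libraries. The 8 measured markers of mature olfactory sensory neurons summed to 148, 379 and 129 FPKM after injury and to 443, 578 and 758 FPKM without injury. Of 6 measured sustentacular cell markers, 5 had a negative difference and 3 were lower in every injured library (median log2 difference -0.46), while the sixth, Krt18, was at 390, 119 and 558 FPKM after injury and 133, 160 and 173 FPKM without injury. The 7 measured immune cell markers summed to 161, 70.9 and 102 FPKM after injury and 85.4, 130 and 203 FPKM without injury. The 3 of fibroblasts summed to 101, 77.7 and 32.8 FPKM after injury and 126, 220 and 158 FPKM without injury, and the 6 of ciliated cells to 48.7, 29.2 and 28.6 FPKM after injury and 38.0, 45.6 and 84.6 FPKM without injury. Fibroblast sums did not overlap between the groups, while immune and ciliated sums did. The fibroblast difference lay with Dcn, at 27.5, 62.5 and 15.3 FPKM after injury and 116, 162 and 145 FPKM without injury. Col1a1 and Col1a2 overlapped between the groups, with positive log2 differences of 0.33 and 0.39. The 5 markers of Bowman glands and nasal secretory cells summed to 6667, 2014 and 4552 FPKM after injury and 6071, 6362 and 4414 FPKM without injury. These sums overlapped, but Plunc (2217, 1182 and 2290 FPKM after injury, 4245, 4978 and 3023 FPKM without) and Lcn11 were lower in every injured library. Sox9, Ltf and Reg3g overlapped, with log2 differences of -0.03, 0.79 and 0.43. Of the 6 symbols listed for olfactory ensheathing cells and the 6 for endothelial cells, 0 could be analysed here. The correlation of injured replicate 2 with the other injured libraries over all genes (Pearson r = 0.734 and 0.754 on log2 values) was below theirs with each other (0.849). The single entry Mir703 held 8.01 to 18.6% of all FPKM after injury and 22.03 to 25.45% without injury, so every other gene's share moves with it. The X-linked RNA Xist was at 0.0645, 0.346 and 0.561 FPKM after injury, against 27.4, 33.8 and 27.0 FPKM without injury, so injury and the sex of the pooled animals cannot be told apart.

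No member passed the test over the 6 libraries (limma, Benjamini-Hochberg adjusted p under 0.05 over 7987 genes). Across all genes, 0.0% passed as higher and 0.0125%, which is Xist alone, passed as lower. Most members nevertheless stood higher after injury: the log2 difference was positive for 51 and negative for 11, with a median of 0.31 and quartiles of 0.10 and 0.58. Over all genes tested the median was 0.16 and 62.9% of the differences were positive, against 82.3% of the members. Members whose 3 injured values all lay above their 3 uninjured values numbered 12 (19.4%), against 12.0% of all genes, and 1 member lay entirely below (1.61%), against 6.75%. At an unadjusted limma p under 0.05 there were 7 higher members (11.3%), against 7.15% of all genes, and 1 lower member, against 4.04%. In bulk libraries, more RNA of a gene per cell and more cells of a type that holds it cannot be told apart.

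**Figure D1:**
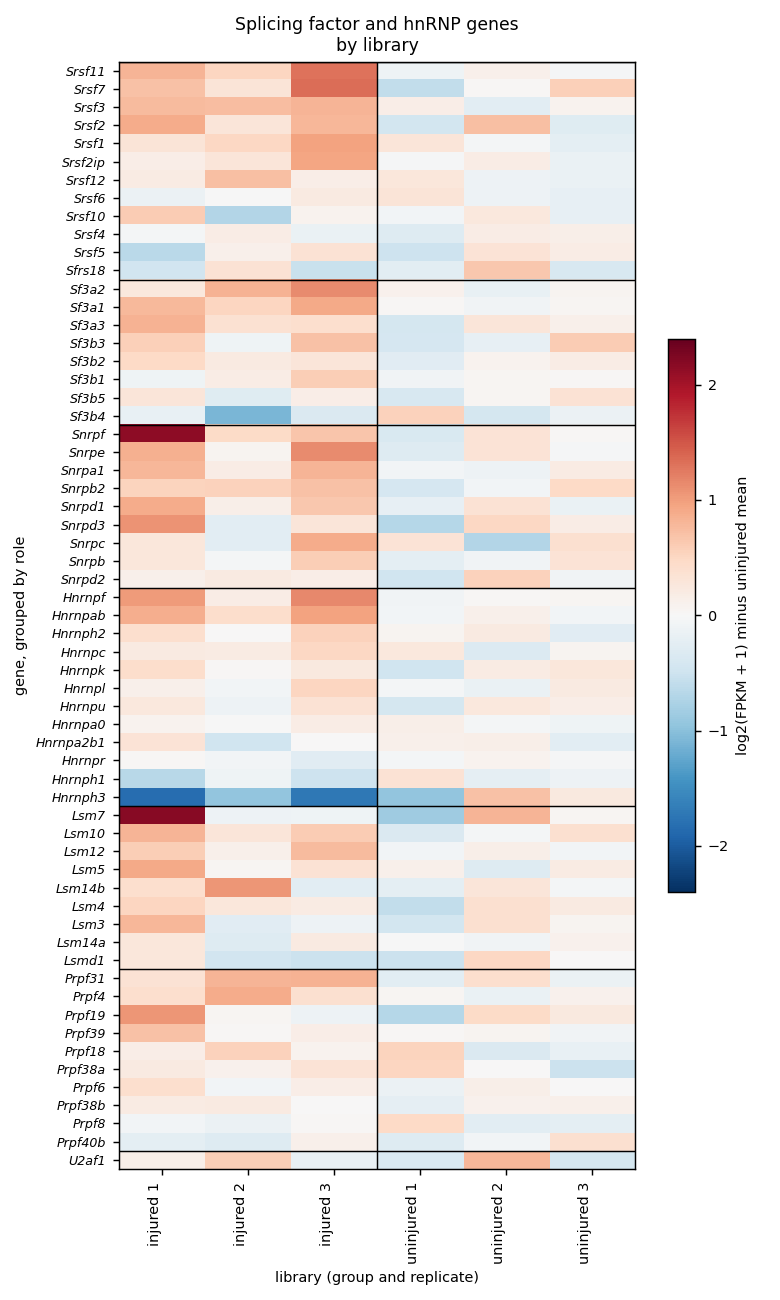
Each row is 1 of 61 splicing genes, grouped by role, and each column a library, injured on the left and uninjured on the right; colour gives the log2(FPKM + 1) value minus that gene's mean over the uninjured libraries. The median over all 62 members is 0.34, 0.13 and 0.33 in injured replicates 1, 2 and 3, and -0.12, 0.08 and 0.04 in the uninjured replicates.

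By library, the members' median deviation from each gene's uninjured mean was 0.34, 0.13 and 0.33 (log2) in injured replicates 1, 2 and 3, against -0.12, 0.08 and 0.04 in the uninjured replicates. Over all genes tested the median deviation was 0.14, 0.01 and 0.18 in the injured replicates, and between -0.04 and 0.03 in the uninjured replicates. Injured replicate 2, the library rich in neuronal precursor markers, was thus nearest to the uninjured libraries for the members and for all genes alike. The part of those markers in the result was not tested. The members summed to 2316, 1874 and 2388 FPKM after injury and 1645, 1965 and 1774 FPKM without injury, which overlap. As a share of all FPKM outside Mir703 they made up 1.23, 1.29 and 1.27% after injury and 1.17, 1.21 and 1.10% without injury, which do not overlap. Without injured replicate 2 the median difference was 0.35, against 0.17 over all genes, and 1 member passed as higher, Hnrnpf, beside 3.43% of all genes higher and 1.14% lower. In that comparison 25 of the 62 members stood wholly higher, against 29.4% of all genes, and 3 wholly lower, against 14.5%.

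The size of the differences depended on how libraries were scaled. Upper-quartile scaling moved the median of the members to 0.14 and that of all genes to -0.01, and 41 of the 62 differences were then positive. Quantile normalization gave medians of 0.14 for the members and 0.01 for all genes, with 43 positive. Rescaling without the Mir703 entry gave 0.17 for the members and 0.02 for all genes, with 44 positive. The sign was positive under the main setting and all 3 of these scalings for 41 members, negative under all for 11, and differed between them for 10. Of the 13 members whose groups did not overlap, 8 still did not under upper-quartile scaling, 8 under quantile normalization and 7 without Mir703. In all, 7 members were then wholly higher and 2 wholly lower under upper-quartile scaling (7.27% and 11.2% of all genes), 7 and 1 under quantile normalization (7.64% and 10.7%), and 9 and 1 without Mir703 (8.74% and 10.3%). Those that then overlapped were Sf3a2, Sf3a3, Sf3b2, Snrpb2 and Srsf1, with Prpf4 as well in the rescaling without Mir703.

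**Figure D2:**
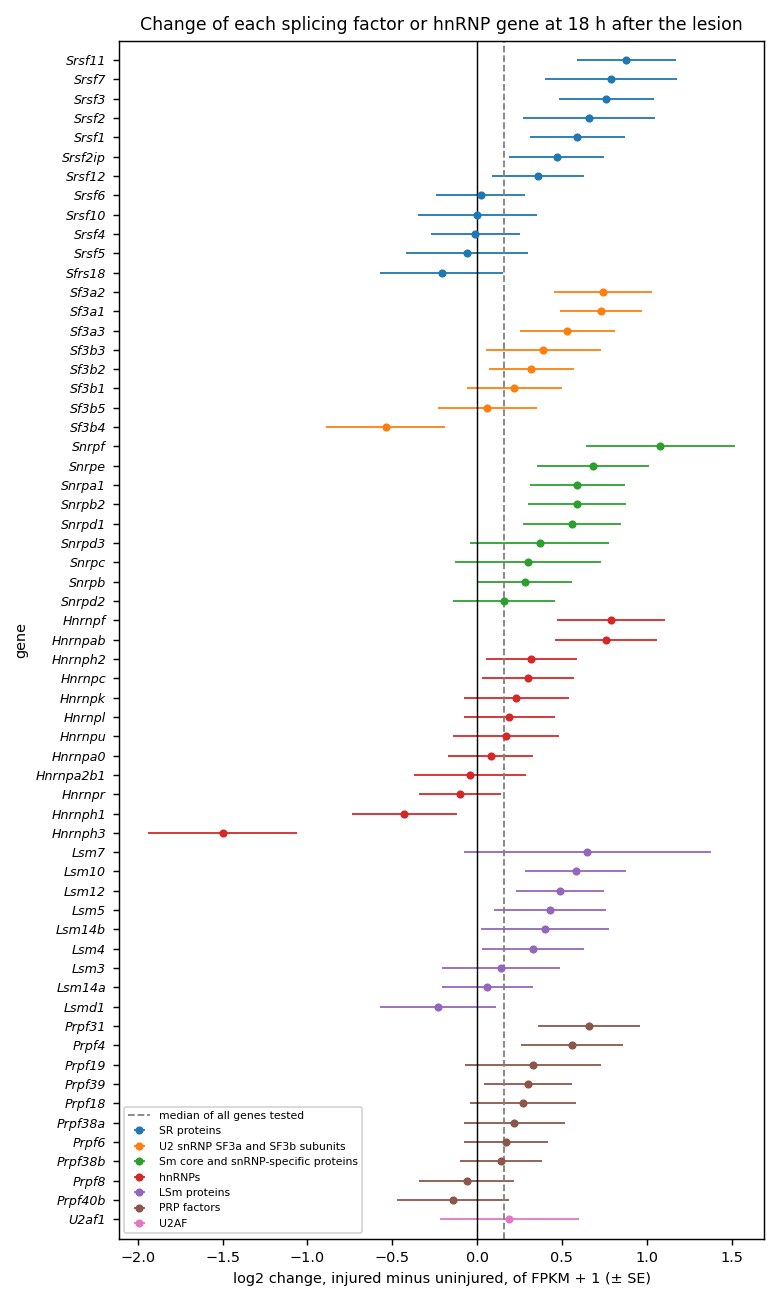
Log2 difference of each of 61 members, injured minus uninjured, on log2(FPKM + 1) values, with a bar of 1 SE either way from limma, ordered and coloured by role; the vertical lines mark 0 and the median of all genes tested (0.16). The range runs from 1.08 for Snrpf to -1.50 for Hnrnph3.

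SR proteins bind exonic enhancers through an RNA recognition motif and carry a tail rich in arginine and serine. Their median difference was 0.41 over 12 genes, against 0.16 for all genes. Of the 12, 9 were positive (75.0%, against 62.9% of all genes) and 3 separated the groups upwards (25.0%, against 12.0%). Srsf2, a nuclear speckle protein and the most abundant member, was at 221, 146 and 208 FPKM after injury and 88.1, 197 and 97.5 FPKM without injury. Uninjured replicate 2 lay among the injured libraries, so the groups overlapped (log2 difference 0.66, SE 0.39, limma adjusted p = 0.544). Srsf3, a small SR protein that also links mRNA to export, was at 109, 108 and 114 FPKM after injury and 72.1, 53.9 and 68.7 FPKM without injury. The injured libraries were within a few FPKM of one another and all above the uninjured ones, and the mean was 110 ± 3.0 FPKM after injury and 64.9 ± 9.68 FPKM without injury (SD, n = 3 each). The log2 difference for Srsf3 was 0.76 (SE 0.28, limma adjusted p = 0.375).

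Srsf11, an SR-related protein, was at 59.5, 47.8 and 83.9 FPKM after injury and 31.0, 36.4 and 32.4 FPKM without injury. Its groups did not overlap, and the log2 difference was 0.88 (SE 0.29, limma adjusted p = 0.337). Srsf1, which takes part both in constitutive splicing and in exon choice, was at 28.2, 32.3 and 45.1 FPKM after injury and 27.6, 21.8 and 18.9 FPKM without injury. The nearest Srsf1 values, 28.2 and 27.6 FPKM, were almost equal, and under upper-quartile scaling the groups overlapped. Srsf7, a further export adaptor, was at 84.1, 63.9 and 132 FPKM after injury, against 33.7, 52.5 and 76.6 FPKM without injury, and overlapped. Srsf12 was at 0.36, and for 4 SR genes the log2 difference was close to 0, at -0.06 for Srsf5, -0.01 for Srsf4, 0.02 for Srsf6 and 0.00 for Srsf10. Those 4 intervals all reached at least 0.57 in either direction, so differences of that size were not detectable here. Sfrs18, named Pnisr in RefSeq, was the lowest of the group at -0.21, and Srsf2ip, named Scaf11 there, was at 0.47; both are SR-related genes outside the core family, and without them the median was 0.48.

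**Figure D3:**
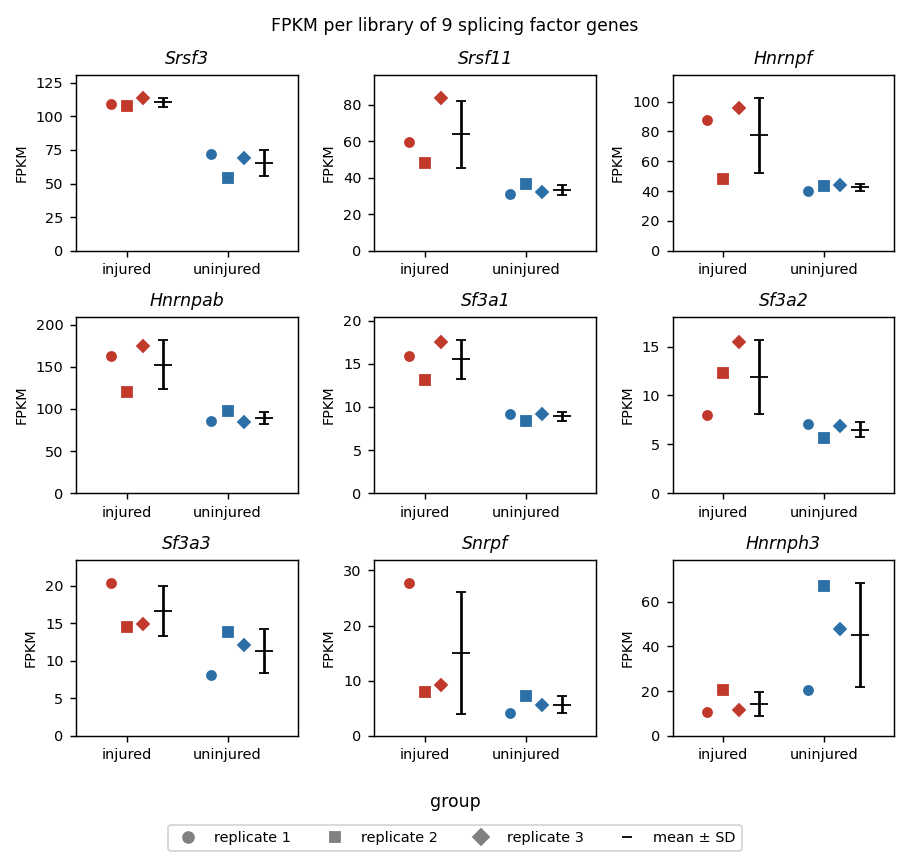
FPKM in each library for 9 genes whose groups do not overlap, chosen after their values were seen, with injured points left of uninjured points and the mean ± SD (n = 3) beside each group; each panel has its own axis from 0. The injured points lie above all uninjured points in 8 panels and below them for Hnrnph3, where 20.5 and 20.7 FPKM are the nearest values.

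SF3a and SF3b sit on the U2 snRNP and hold the branch point. Their 8 genes had a median difference of 0.35, with 7 positive (87.5%, against 62.9% of all genes) and 4 wholly higher (50.0%, against 12.0%). The median was 0.19 without uninjured replicate 1 and 0.18 with upper-quartile scaling, against 0.14 and -0.01 for all genes, and 0.50 without injured replicate 2. The higher values lay with SF3a, all 3 of whose subunits separated the groups, while 1 of the 5 SF3b genes did; this division of the list was made after the values were seen. Sf3a1 was at 15.9, 13.1 and 17.5 FPKM after injury and 9.12, 8.34 and 9.22 FPKM without injury. Every injured value exceeded every uninjured one by several FPKM, with means of 15.5 ± 2.24 FPKM after injury and 8.89 ± 0.478 FPKM without injury (SD, n = 3 each) and a log2 difference of 0.73 (SE 0.24, limma adjusted p = 0.34). Sf3a2 was at 7.96, 12.3 and 15.5 FPKM after injury and 7.06, 5.65 and 6.84 FPKM without injury. Sf3a2 thus varied more among injured libraries, with a log2 difference of 0.74 (SE 0.29, limma adjusted p = 0.397). Sf3a3 was at 20.4, 14.5 and 14.9 FPKM after injury and 8.03, 13.8 and 12.1 FPKM without injury. Its nearest values were 14.5 and 13.8 FPKM, and the log2 difference was 0.53 (SE 0.28, limma adjusted p = 0.507). Under upper-quartile scaling, quantile normalization and rescaling without Mir703, Sf3a1 still separated the groups, whereas Sf3a2 and Sf3a3 did not.

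Sf3b1, the large scaffold that contacts the branch point and is often mutated in human myelodysplasia, was at 38.3, 47.2 and 63.1 FPKM after injury and 38.9, 43.1 and 42.5 FPKM without injury. The groups overlapped, and the log2 difference was 0.22 (SE 0.28). Sf3b2 was at 29.9, 25.0 and 26.2 FPKM after injury and 17.6, 22.7 and 24.2 FPKM without injury, which just did not overlap. Sf3b4, which tethers U2 to pre-mRNA near the branch point, went the other way, with 26.2, 13.4 and 23.3 FPKM after injury and 44.4, 22.0 and 26.9 FPKM without injury (log2 difference -0.54, SE 0.35). Its groups overlapped through uninjured replicate 2. Sf3b3 and Sf3b5 were at 0.39 and 0.06.

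The Sm genes and snRNP-specific genes were the one role with more than 1 gene in which every difference was positive, 9 of 9, and all 9 exceeded the median of all genes. Their median was 0.56, and 2 of them (22.2%) separated the groups upwards, against 12.0% of all genes. Snrpf, which encodes the Sm ring protein SmF, was at 27.8, 7.90 and 9.26 FPKM after injury and 4.05, 7.19 and 5.66 FPKM without injury. This was the largest positive difference of any member (log2 1.08, SE 0.44, limma adjusted p = 0.406), and it leaned on injured replicate 1, without which it was 0.55. In that library the median deviation of the immune markers from the uninjured mean was 1.58 (log2). Ptprc (17.9 FPKM), Ngp (17.7 FPKM), S100a8 (41.4 FPKM) and S100a9 (41.7 FPKM) were the highest of all libraries there. The other immune markers went the other way, with Cd74 (40.5 FPKM), Tyrobp (2.0 FPKM) and Cd52 (0.001 FPKM) below every uninjured library. The immune deviation was -0.20 and -0.24 in the other injured libraries and -0.69, 0.51 and 0.44 in the uninjured libraries. For the fibroblast markers the deviation was 1.33, -0.47 and -0.41 after injury and -0.77, 1.29 and -0.52 without injury. By this median, uninjured replicate 2 was thus almost as high as injured replicate 1 in fibroblast markers. By their sum it was higher, at 220 FPKM against 101 FPKM. The part of these markers in the Snrpf result was not tested. Snrpe, the neighbour of Snrpf in the ring, was at 23.7, 13.4 and 29.0 FPKM after injury, against 10.1, 16.3 and 12.4 FPKM without injury, and overlapped. Snrpd2 was at 30.0, 32.4 and 30.8 FPKM after injury and 19.6, 41.2 and 26.0 FPKM without injury, so the uninjured libraries held both the lowest and the highest value. The log2 difference of Snrpd2 was 0.16, and -0.02 under upper-quartile scaling. The other ring genes were between 0.28 for Snrpb and 0.56 for Snrpd1, with Snrpd3 at 0.37.

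Among the snRNP-specific proteins, Snrpb2 of the U2 snRNP was at 35.3, 35.8 and 39.6 FPKM after injury and 17.9, 23.0 and 33.8 FPKM without injury. The injured libraries lay close together and above a wide uninjured range, with a log2 difference of 0.59 (SE 0.29, limma adjusted p = 0.478). Snrpa1, whose protein binds U2 RNA together with that of Snrpb2, was at 13.8, 8.67 and 14.1 FPKM after injury and 7.16, 6.85 and 8.83 FPKM without injury. Those values overlapped only between injured replicate 2 and uninjured replicate 3, and the log2 difference was also 0.59. Snrpc, the U1 protein that steadies pairing at the 5′ splice site, was the least abundant member, with 4.31, 2.71 and 7.24 FPKM after injury and 4.52, 1.72 and 4.74 FPKM without injury.

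The hnRNPs had a median difference of 0.18, against 0.16 for all genes, and of 0.32, against 0.17, without injured replicate 2. Of 12 genes, 8 were positive (66.7%, against 62.9% of all genes), 2 were wholly higher (16.7%, against 12.0%) and 1 was wholly lower (8.33%, against 6.75%). Hnrnpab, an RNA-binding protein of the A/B type, was at 163, 120 and 175 FPKM after injury and 85.3, 97.2 and 85.0 FPKM without injury. Its groups did not overlap, with means of 153 ± 28.8 FPKM after injury and 89.2 ± 6.95 FPKM without injury (SD, n = 3 each) and a log2 difference of 0.76 (SE 0.30, limma adjusted p = 0.397). Hnrnpa2b1, the most abundant hnRNP, was at 200, 114 and 160 FPKM after injury and 172, 174 and 133 FPKM without injury. The groups overlapped and the means were almost equal (log2 difference -0.04, 95% interval -0.79 to 0.70).

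The hnRNP F and H proteins bind runs of guanine and are close relatives, yet their genes lay on both sides of 0. Hnrnpf was at 87.5, 48.4 and 96.0 FPKM after injury and 40.0, 43.6 and 44.2 FPKM without injury. All injured values were higher, injured replicate 2 least, and the log2 difference was 0.79 (SE 0.32, limma adjusted p = 0.402). Without injured replicate 2 it was 1.09 (limma adjusted p = 0.0421), the one member to pass there. Hnrnph3 was at 10.8, 20.5 and 11.6 FPKM after injury and 20.7, 67.2 and 47.8 FPKM without injury. The uninjured libraries differed widely among themselves, and the nearest values of the groups, 20.5 and 20.7 FPKM, were almost equal. The means were 14.3 ± 5.39 FPKM after injury and 45.2 ± 23.4 FPKM without injury (SD, n = 3 each), a log2 difference of -1.50 (SE 0.44, limma unadjusted p = 0.00745, adjusted p = 0.306). Hnrnph1 was at 67.4, 100 and 76.2 FPKM after injury and 137, 93.1 and 98.5 FPKM without injury, which overlapped (log2 difference -0.43, SE 0.31). Hnrnph2 was at 24.5, 18.6 and 27.5 FPKM after injury, against 19.3, 21.4 and 15.0 FPKM without injury (log2 difference 0.32). These genes are similar in sequence, and the sources used here do not say how reads shared between such genes or their copies were counted.

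The other hnRNPs differed little. Hnrnpu, a nuclear scaffold protein, was at 103, 78.7 and 110 FPKM after injury and 64.0, 103 and 95.6 FPKM without injury (log2 difference 0.17). Hnrnpk, which binds cytosine-rich RNA, was at 75.9, 57.1 and 66.0 FPKM after injury and 39.9, 64.7 and 68.1 FPKM without injury (log2 difference 0.23). Hnrnpc, which binds uridine tracts, had a log2 difference of 0.30, Hnrnpl, which binds CA repeats, 0.19, Hnrnpa0 0.08 and Hnrnpr -0.10. All 6 overlapped between the groups.

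By library, the roles divided in another way than by their medians. The SR genes had a median deviation from the uninjured mean of 0.26, 0.30 and 0.57 (log2) in the injured libraries, against -0.08, 0.15 and -0.16 in the uninjured libraries. The SF3a and SF3b genes were at 0.38, 0.20 and 0.50 after injury, against -0.18, -0.02 and 0.09 without injury. Both of these roles kept the groups apart, and so did the PRP factors. The Sm and snRNP genes were at 0.79, 0.14 and 0.66 after injury, against -0.31, 0.33 and 0.18 without injury. There injured replicate 2 lay below uninjured replicates 2 and 3, as it did for the LSm genes.

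**Figure D4:**
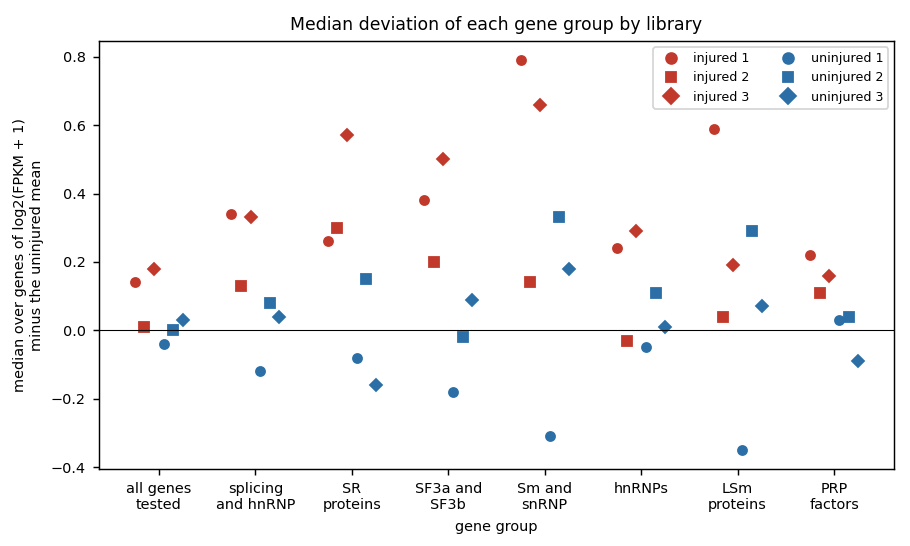
Each point is 1 library: the median, over the genes of a role, of the log2(FPKM + 1) value minus the gene's uninjured mean, with injured points red and left of uninjured points in blue, beside all genes tested and all 62 splicing genes. Injured and uninjured points are apart for the SR, SF3 and PRP genes and mixed for the Sm and snRNP genes, the hnRNPs and the LSm genes.

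LSm proteins form rings like the Sm proteins, one on U6 RNA in the nucleus and one that takes part in mRNA decapping in the cytoplasm. Of the 9 entries 8 were positive with a median of 0.40, but 0 separated the groups in either direction, against 12.0% higher and 6.75% lower of all genes. Without injured replicate 1 the median was 0.20, against 0.15 for all genes. Lsm14a, a protein of cytoplasmic P-bodies and the most abundant entry here, was at 40.8, 27.0 and 39.3 FPKM after injury and 33.6, 31.6 and 36.1 FPKM without injury. Its log2 difference was 0.06 and became -0.12 under upper-quartile scaling. Lsm7, a ring subunit, was at 33.1, 5.90 and 5.92 FPKM after injury and 3.13, 12.2 and 6.68 FPKM without injury. A single library, injured replicate 1, made its log2 difference of 0.65 (SE 0.73), which was -0.11 without that library. The same library, whose immune and fibroblast markers are given above, had the highest value for the ring subunits Lsm3 (34.2 FPKM), Lsm4 (25.9 FPKM) and Lsm5 (8.61 FPKM). It was not particular to the rings, since Srsf2 (221 FPKM), Sf3a3 (20.4 FPKM) and Hnrnpa2b1 (200 FPKM) were also highest there. Lsm10, a protein of the U7 snRNP that matures histone mRNA, was at 10.8, 7.17 and 9.23 FPKM after injury and 4.23, 5.49 and 7.75 FPKM without injury, and overlapped through injured replicate 2. Lsmd1, named Naa38 in RefSeq and known as a subunit of an N-terminal acetyltransferase, had 42.9, 25.4 and 24.3 FPKM after injury and 24.3, 50.1 and 35.5 FPKM without injury.

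PRP factors remodel the spliceosome. Their median difference was 0.27 over 11 genes, 9 of them positive (81.8%, against 62.9% of all genes) and 1 wholly higher (9.09%, against 12.0%). It was 0.11 without injured replicate 1 and 0.17 without uninjured replicate 3, against 0.15 and 0.17 for all genes, and 0.10 with upper-quartile scaling, against -0.01. Prpf8, the core of the catalytic centre, was at 32.7, 31.2 and 35.0 FPKM after injury and 48.2, 28.8 and 29.3 FPKM without injury. Only uninjured replicate 1 was outside a narrow range, and the log2 difference was -0.06 (SE 0.28). Prpf31, a U4/U6 protein mutated in human retinitis pigmentosa, was at 6.20, 8.94 and 9.15 FPKM after injury and 3.75, 6.47 and 4.15 FPKM without injury. The overlap lay between injured replicate 1 and uninjured replicate 2, and the log2 difference of 0.66 (SE 0.30, limma adjusted p = 0.455) was the largest of the PRP factors. Prpf4, likewise of U4/U6, was at 5.27, 7.74 and 5.15 FPKM after injury and 3.87, 3.23 and 4.09 FPKM without injury, with no overlap. Prpf40b was the lowest of the group at -0.14, and Prpf6, Prpf18, Prpf38a and Prpf39 lay between 0.14 for Prpf38b and 0.33 for Prpf19, the ubiquitin ligase of the catalytic complex. U2af1, which reads the AG at the 3′ splice site, was at 4.45, 6.50 and 3.39 FPKM after injury and 2.85, 7.60 and 2.68 FPKM without injury, and overlapped.

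Unproductive splicing was looked at only through annotation, because the table has 1 value per gene. GENCODE M21 lists a nonsense-mediated decay transcript for 28 of the 62 members (45.2%), against 29.9% of the 7677 tested genes it covers, and for 10 of the 12 SR entries. The median difference was 0.22 for members with such a transcript and 0.33 for those without. Shifts between productive and unproductive transcripts of a gene were not measured.

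Splicing genes under other symbols were read from lists of spliceosome and RNA-processing genes. Of 177 symbols in 10 lists, 125 were in the table, and 0 passed limma's test over 6 libraries. At an unadjusted limma p under 0.05, 16 were higher (12.8%) and 0 lower, against 7.15% and 4.04% of all genes. In all, 101 were positive (80.8%, against 62.9% of all genes), and the median was 0.30, against 0.16. Of the 125, 32 (25.6%) were wholly higher and 0 wholly lower, against the 12.0% and 6.75% of all genes given above. Below, the genes with the highest levels of each list are named.

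The SMN complex and Sm assembly genes, which load Sm rings onto snRNA, had the highest median of the 10 lists, 0.43, with 11 of 12 positive. Clns1a, which holds Sm proteins before assembly, was at 51.2, 25.7 and 46.6 FPKM after injury and 24.8, 31.4 and 31.4 FPKM without injury, and overlapped through injured replicate 2. Xpo1, the export receptor that carries snRNA out of the nucleus, had a log2 difference of 0.24. The U5 and tri-snRNP list followed with a median of 0.39, 7 of 8 positive and 4 wholly higher (50.0%, against 12.0% of all genes). Its most abundant gene Nhp2l1, a U4 RNA-binding protein, was at 0.45 and the helicase gene Snrnp200 at 0.07 (log2 difference).

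SR-related proteins and SR protein kinases had a median of 0.32, with 14 of 16 positive. In that list Srrm2, a nuclear speckle scaffold, had a log2 difference of 0.20, and Clk1, a kinase of SR proteins, was at 69.8, 57.7 and 94.1 FPKM after injury and 111, 66.8 and 71.4 FPKM without injury, and overlapped. The list of hnRNPs and regulators under other symbols had a median of 0.29, with 15 of 22 positive and 8 wholly higher (36.4%, against 12.0% of all genes). Its most abundant genes both overlapped, with a log2 difference of -0.02 for Pcbp2, a binder of cytosine-rich RNA, and 0.37 for Ptbp1, the polypyrimidine tract repressor.

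Minor spliceosome genes had a median of 0.28 over 3 genes, led in level by Zcrb1 (log2 difference 0.28) and Snrnp48 (0.61, no overlap). The Prp19 complex and catalytic factors had a median of 0.23, with 16 of 18 positive, and their most abundant genes Cwc15 and Syf2 were at 0.30 and -0.15. The exon junction complex and cap-binding list also had a median of 0.23, with 12 of 15 positive, and Magoh, a core subunit of that complex, was at 0.14. Cell-type splicing regulators had a median of 0.22, with 11 of 13 positive. Among them Mbnl2, a muscleblind protein, was at 68.3, 101 and 178 FPKM after injury and 68.0, 79.3 and 66.4 FPKM without injury, and Rbm5 had a log2 difference of -0.18.

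The U1-associated list had a median of 0.20, with 5 of 6 positive. Luc7l3 was at 28.7, 31.3 and 28.1 FPKM after injury and 14.8, 21.6 and 17.6 FPKM without injury, with no overlap (log2 difference 0.69, SE 0.25, limma adjusted p = 0.376). Snrnp70, the U1 protein with the highest level of that list, had a log2 difference of 0.00 and overlapped. U2-associated genes had the lowest median, 0.12, with 8 of 12 positive. The helicase gene Dhx15 was at 43.6, 77.7 and 57.7 FPKM after injury and 46.7, 32.3 and 38.3 FPKM without injury, and overlapped, while Sf1, the branch point protein that U2 displaces, had a log2 difference of 0.01.

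Srpk1, the kinase that phosphorylates SR proteins, and the export helicases Ddx39 and Bat1a are described after their values were seen. Srpk1 was at 27.8, 18.7 and 22.3 FPKM after injury and 8.69, 10.6 and 10.8 FPKM without injury (log2 difference 1.10, SE 0.26, limma adjusted p = 0.181). Ddx39 was at 37.7, 12.9 and 40.4 FPKM after injury and 6.01, 5.07 and 5.65 FPKM without injury (log2 difference 2.10, SE 0.40, limma adjusted p = 0.144). Neither overlapped, and both passed as higher without injured replicate 2, with limma adjusted p = 0.0357 for Srpk1 and 0.00325 for Ddx39. Bat1a was at 54.0, 45.2 and 61.7 FPKM after injury and 29.6, 28.7 and 31.6 FPKM without injury, with no overlap. Ddx39 and Bat1a are close relatives whose shared reads, if any, may have been counted for either.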

How the data were processed

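PolyA RNA of TdTomato-sorted cells was made into Nextera XT libraries, per the labels' protocols. One table of genes by libraries was deposited. Cuffdiff, TopHat and FastQC are listed without versions or roles, as is the build mm9, per the submitters' processing notes. No unit stands in the table: the deposited values were read as FPKM, since Cuffdiff is listed and the header of the gene column is the one it writes. Whole-read steps were not found: at most 2.96% of ratios among low genes agreed within 1%, so depth is unknown and no count test was run. From the table, 4108 blank rows were left out, and 131 entries that join several genes were kept in the fit but not as members. The 7987 genes averaging 1 FPKM or more, all 62 members among them, were tested on log2(FPKM + 1) with limma 3.58.1 in R 4.3.3 (trend and robust variance, no block), injured minus uninjured, with Benjamini-Hochberg adjustment and a threshold of 0.05. On this scale differences of low genes are understated. The test was checked on simulated data. Libraries pool animals, so p-values measure the spread between pools; 2-sided limma tests were used throughout.

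Named genes were the 8 members with the largest positive and the member with the largest negative difference among those that do not overlap, the 2 with the highest levels in each role, and the largest and smallest difference in each role; other genes given with values were chosen after their values were seen. The values of 1 member, which is in every count and median, are not reported here. The members and lists were chosen with earlier results of these data known. Symbols were matched to RefSeq and GENCODE M21 on GRCm38 by name only, with no coordinates of mm9 used. Alternatives were other pseudocounts, filters, scalings, variance settings, library weights, a replicate block and each library left out.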

Additional observations from a re-analysis of the deposited data

How the results depend on the processing

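Of the alternatives run on the group, role and named-gene results, 552 values were labelled the same, 42 moved, 21 reversed in sign and 2 stronger. A gene was the same if it kept its direction and side of the threshold, and a median if it stayed within the spread. A count was the same if it stayed near the main one, as 18 members without overlap did without injured replicate 1, against 13. The causes of the shifts below were not tested. Over all genes, 1 passed as reported, 2 with a pseudocount of 0.1, 3 with upper-quartile scaling, 4 with quantile normalization, 6 without both the variance trend and the robust setting, 134 with library weights, 2 without genes at the lowest value, and 1 to 365 when a library was left out, the highest without injured replicate 2 and 5 without injured replicate 1. The count of members that passed was 0, and 0 to 1 with a library left out. The members' median of 0.31 was 0.14 with upper-quartile scaling, 0.14 with quantile normalization, 0.17 without Mir703, and 0.21 to 0.35 with a library left out. Members without overlap numbered 13, 8 with quantile normalization, and 15 to 28 with a library left out; the share of all genes moved too. It was 7.64% higher and 10.7% lower with quantile normalization, 16.3% and 11.6% without injured replicate 3 (15 members), 29.4% and 14.5% without injured replicate 2 (28), 17.2% and 11.1% without uninjured replicate 1 (20), and 15.9% and 8.44% without uninjured replicate 2 (22). With a library left out the role medians ran over 0.31 to 0.49 (SR), 0.19 to 0.50 (SF3a and SF3b), 0.39 to 0.69 (Sm and snRNP), 0.06 to 0.32 (hnRNPs), 0.20 to 0.52 (LSm) and 0.11 to 0.32 (PRP), and the LSm median was 0.19 with library weights. The 8 members under an unadjusted limma p of 0.05 became 5 with upper-quartile scaling, 13 with library weights, and 5 to 13 with a library left out. The share of all genes at this level is given for the main setting only (7.15% higher and 4.04% lower). These counts, and that with a replicate block, therefore cannot be read as changes of the members alone. With a replicate block 221 genes passed, 1 of them a member (Hnrnph3, -1.50, limma adjusted p = 0.00404), and 5 members were under an unadjusted p of 0.05; same-numbered libraries did not deviate together (correlations -0.089, 0.068 and -0.078), so they share only a number. Signs changed for Snrpd2 (-0.02 upper-quartile, -0.04 weights, -0.07 to 0.44 with a library left out), Hnrnpa2b1 (0.07 weights, -0.23 to 0.17), Lsm14a (-0.12 upper-quartile, -0.13 quantile, -0.10 without Mir703, -0.05 to 0.24), Prpf8 (0.08 weights, -0.19 to 0.18), U2af1 (-0.16 weights, -0.03 to 0.58), Sfrs18 (-0.50 to 0.11), Lsmd1 (-0.48 to 0.02), Lsm7 (-0.11 to 1.06) and Prpf40b (-0.30 to 0.04). U2af1 is below a mean of 5 FPKM and has no value under that filter. Depth is unknown, so no counting error could be given.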

Other observations

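Entries that join several genes and include a splicing symbol were not members, since their values cannot be assigned to 1 gene. The entry of Hnrnpa3 with Gm6793 was at 32.8, 33.8 and 36.6 FPKM after injury and 24.7, 20.5 and 17.8 FPKM without injury, with no overlap (log2 difference 0.70, SE 0.25, limma adjusted p = 0.372). The entry of Hnrnpa1, a repressor of exon use, with Gm10052 and Gm5643 was at 129, 75.5 and 157 FPKM after injury and 76.0, 104 and 84.1 FPKM without injury, and overlapped through injured replicate 2. The entry of Hnrnpm with March2 was spread over 47.2, 208 and 274 FPKM after injury and 29.3, 237 and 47.1 FPKM without injury. In that entry libraries of both groups were at a low and at a high level. The entry of U2af1l4 with Tmem149 was at 10.9, 12.3 and 14.2 FPKM after injury and 7.91, 13.2 and 11.0 FPKM without injury, and overlapped.

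The Y-linked genes Ddx3y and Uty were at 7.10 to 13.7 FPKM after injury. Uninjured replicate 1 held 6.67 FPKM of Ddx3y and 3.71 FPKM of Uty, against 1.21 and 1.55 FPKM of Ddx3y and 0.439 and 1.62 FPKM of Uty in the other uninjured libraries. Uninjured replicate 1 was also the library in which Sf3b4 (44.4 FPKM) and Hnrnph1 (137 FPKM) were highest and Srsf7 (33.7 FPKM) lowest of all 6. That library was the highest for other members too, such as Prpf8 (48.2 FPKM), and the lowest for others, such as Srsf2 (88.1 FPKM), Hnrnpk (39.9 FPKM) and Snrpf (4.05 FPKM). These genes are examples picked after their values were seen, with no share over all genes beside them. Whether such values go with the Y-linked genes was not tested.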
